A study of Mus musculus with 4 samples.

Results

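The genes described here are 41 members of the cadherin superfamily that lie outside the protocadherin clusters, chosen by gene symbol from a table of 24771 features. They comprise 5 type I cadherins, 11 type II cadherins, 5 other cadherins, the 3 Celsr genes, 5 Fat and Dachsous genes and 12 nonclustered protocadherins, and every symbol was found in the table. Their expression was measured by RNA-seq in SG placodes derived from pluripotent stem cells (PSCs) and in submandibular glands (SMGs) of E12.5 mouse embryos, each group with 2 samples. The placodes were cultures of the mouse embryonic stem cell (mESC) line 129w2 harvested on day 10, after seeding at 3000 cells per well, 2% Matrigel from day 1, BMP4 at 2 ng/ml on day 3, bFGF at 25 ng/ml with retinoic acid (RA) at 1 μM on day 4 and, starting on day 6, FGF10 at 200 ng/ml. The SMGs were embryonic tissue that received none of these factors in culture, and their mouse strain and dissection are not given in the sources used here. All placodes came from 1 mESC line, and no source says whether the samples of a group were separate cultures or separate litters. The p-values weigh group differences against the spread between these samples, estimated with help from all tested features. They cover no other lines, cultures or litters.

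Cadherins are transmembrane proteins whose extracellular repeats bind calcium and hold neighbouring cells together. Type I and type II cadherins, together called classical cadherins, mostly bind their own kind on the next cell and anchor to actin through catenins. The choice of cadherin helps cells sort into tissues: E-cadherin marks epithelia such as the salivary bud, N-cadherin marks neural tissue and several mesenchymal tissues, and Cdh11 marks mesenchyme. Fat and Dachsous proteins bind each other across cell borders, Celsr proteins belong to the core of planar cell polarity, and nonclustered protocadherins are weaker adhesion molecules with restricted patterns, many of them in the nervous system.

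The tissue labels were first set beside marker genes, because the cadherins are themselves cell type markers. Of 6 epithelial markers, 4 passed as lower in the placodes. Epcam was 1.75 and 2.69 FPKM in the placodes and 87.2 and 78.8 FPKM in the SMGs. Krt5, Krt14 and Krt15 had a value of 0 in each placode sample, and Krt8 and Krt18 did not pass the test. The epithelial list summed to 57.0 and 62.8 FPKM in the placodes and to 338 and 306 FPKM in the SMGs. FPKM is the number of mapped fragments per unit of transcript length and per mapped fragment of the sample. The summed level of 6 neural progenitor markers was 699 to 732 FPKM in the placodes and 45.4 to 51.1 FPKM in the SMGs, and that of 5 neuronal markers was 868 to 901 against 74.7 to 83.3 FPKM. Mesenchymal markers summed to 184 to 190 FPKM in the placodes and to 1751 to 1794 FPKM in the SMGs. Both tissues are mixtures of cell types, so fewer cells of a type and less RNA per cell cannot be told apart in these samples. The part of cell composition in the cadherin results was not tested.

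Most of the family differed between the groups, in both directions. Of the 41 members, 29 had a mean of at least 1 FPKM over the 4 samples and were tested, 6 of them through the level of 1 group only. At an adjusted p below 0.05, 16 members passed as higher and 10 as lower in the placodes, whereas 3 (Cdh4, Pcdh7 and Pcdh17) did not pass. The background in this contrast was high: of 13193 tested features, 76.2% were called, 35.7% as higher and 40.4% as lower. A change of at least 2-fold was called for 13 members as higher and for 8 as lower, together 72.4% of the 29 tested. Of all tested features, 29.4% were called at this size, 14.1% as higher and 15.2% as lower. The 72.4% includes all 6 members tested through 1 group only, whose way into the test favours a large change. The share of all features that entered in this way was not computed. The median absolute log2 fold change was 1.84 over the tested members and 0.55 over all tested features. The fold change is the difference of group means of log2(FPKM + 1), placodes minus SMGs, which understates the change of genes with low values. Of all 41, 23 had a group mean of at least 1 FPKM in both groups, 8 in the placodes only, 3 in the SMGs only and 7 in neither.

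**Figure D1:**
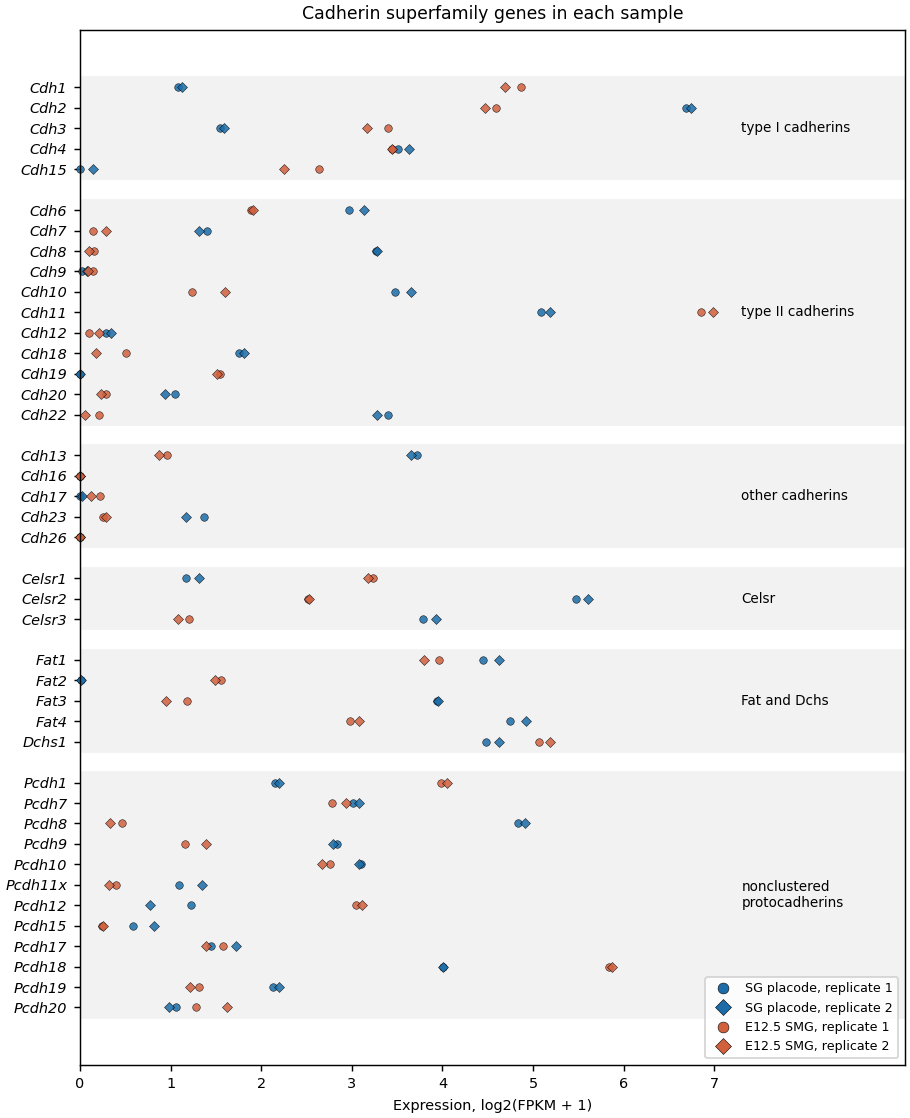
Expression of the 41 genes on the log2(FPKM + 1) scale, arranged by class, with 1 point per sample, placodes in blue and SMGs in orange, circles for replicate 1 and diamonds for replicate 2. Replicates lie close together for most genes, Cdh2 is the rightmost blue gene, Cdh11 is the rightmost orange gene, and Cdh16 and Cdh26 lie at 0 in every sample.

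For 27 members the RefSeq promoter table (GRCm38.p6) held a sequence, in 30 windows, each taken as the 250 bases before a transcription start. The windows of 3 genes are shown, a choice made after the values had been seen. These genes have the highest log2 fold changes among members whose window lies wholly outside the annotated gene. They are Pcdh8 (chr14:79771313-79771562, minus strand), Cdh8 (chr8:99416472-99416721, minus strand) and Celsr2 (chr3:108415580-108415829, minus strand, not adjacent to the annotated gene start at 108415552). Each is written 5′ to 3′ on the strand of the gene, and capitals mark the E-box CAGGTG, the motif bound by Snail and Zeb repressors.
Pcdh8: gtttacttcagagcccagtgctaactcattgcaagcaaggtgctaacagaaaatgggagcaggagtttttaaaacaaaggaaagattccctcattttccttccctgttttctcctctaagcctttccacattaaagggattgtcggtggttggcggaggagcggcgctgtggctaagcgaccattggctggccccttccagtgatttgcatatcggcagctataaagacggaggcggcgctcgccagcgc
Cdh8: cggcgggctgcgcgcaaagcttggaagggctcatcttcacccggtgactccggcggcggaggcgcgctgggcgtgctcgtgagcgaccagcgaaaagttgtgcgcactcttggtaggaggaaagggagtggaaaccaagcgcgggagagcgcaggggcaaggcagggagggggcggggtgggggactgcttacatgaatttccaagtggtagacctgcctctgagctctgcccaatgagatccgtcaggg
Celsr2: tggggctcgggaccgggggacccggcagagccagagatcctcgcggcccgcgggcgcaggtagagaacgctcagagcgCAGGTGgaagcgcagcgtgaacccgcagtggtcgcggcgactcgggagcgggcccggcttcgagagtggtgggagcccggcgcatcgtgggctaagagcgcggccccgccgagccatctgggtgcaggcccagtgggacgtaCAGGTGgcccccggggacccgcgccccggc
The 3 windows differ in base composition, with a GC content of 51.2% in Pcdh8, 64.4% in Cdh8 and 75.2% in Celsr2, around a median of 58.0% over the windows of members and 52.4% over all 32851 windows in the table. Searching both strands, the E-box was found in Celsr2, where it starts 172 and 30 bases before the transcription start, and in 3 other members, Cdh7, Fat1 and Pcdh15. That is 4 of 27 members, or 14.8%, where 19.4% of all 27025 genes in the table hold it. In Cdh7, Fat1 and Pcdh15 all 250 bases of each window with the motif lie inside the annotated gene. Letters absent from this window say nothing of the factors, and Cdh1, Cdh2, Cdh3, Cdh11 and Cdh13 have no entry in the table.

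Among type I cadherins the placodes were high in N-cadherin and the SMGs in E-cadherin, P-cadherin and M-cadherin. Cdh2 (N-cadherin) was 102 and 106 FPKM in the 2 placode samples and 23.0 and 21.1 FPKM in the SMG samples. It was the most abundant of the 41 genes in the placodes and rose by 2.19 on the log2 scale (SE 0.06, adjusted p = 7.64e-07). Cdh1 (E-cadherin) moved the other way, from 28.2 and 24.7 FPKM in the SMGs to 1.11 and 1.18 FPKM in the placodes (log2 fold change −3.68, SE 0.10, adjusted p = 6.41e-07). On this scale no tested member fell further, but with a pseudocount of 0.1 Cdh15 fell further, with −4.99 beside −4.42 for Cdh1. Cdh3 (P-cadherin, a cadherin of basal epithelial cells) was 1.92 and 2.00 FPKM in the placodes and 9.55 and 7.96 FPKM in the SMGs, with a log2 fold change of −1.72 (SE 0.11). The groups of these 3 genes did not overlap, which says little with 2 samples in each group. The share of all features without overlap was not computed. Within a sample, Cdh2 was 91.7 and 90.2 times as high as Cdh1 in the placodes, on the FPKM scale, whereas the ratio of Cdh1 to Cdh2 was 1.23 and 1.17 in the SMGs. Cdh1 and Cdh3 are neighbours on chromosome 8, with 46053 bp and 1 other protein-coding gene between them (GRCm38), and both were lower.

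Cdh15 (M-cadherin) is a cadherin of skeletal muscle. It was listed at 0 and 0.105 FPKM in the placodes and at 5.22 and 3.77 FPKM in the SMGs, and was called lower (adjusted p = 2.77e-05), having passed the expression minimum through the SMGs alone. Myog, a muscle transcription factor, was likewise at 0 in each of the placode samples and at 28.3 and 21.2 FPKM in the SMGs. Of 5 muscle markers 3 were called lower, while Pax7, which neural cells also use, was higher in the placodes, and the list summed to 12.1 to 13.5 FPKM in the placodes and to 36.7 to 49.8 FPKM in the SMGs. Cdh4 (R-cadherin), known from retina and brain, was the type I gene that did not pass the test. Its values were 10.4 and 11.4 FPKM in the placodes and 9.86 and 9.89 FPKM in the SMGs, and the 95% interval of its log2 fold change ran from −0.06 to 0.32 (adjusted p = 0.167).

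Type II members divided between Cdh11 and a group of genes known mainly from the nervous system and kidney. Cdh11, the mesenchymal cadherin, was 32.9 and 35.3 FPKM in the placodes and 115 and 126 FPKM in the SMGs, where it was the most abundant of the 41 genes. Its log2 fold change was −1.79 (SE 0.06, adjusted p = 2.15e-06), in the same direction as all 6 mesenchymal markers. The other 5 tested type II members were higher in the placodes. Cdh8 was 8.65 and 8.69 FPKM in the placodes and 0.111 and 0.0686 FPKM in the SMGs (log2 fold change 3.15, adjusted p = 1.37e-06). Cdh22 had 9.52 and 8.67 FPKM against 0.152 and 0.0424 FPKM (log2 fold change 3.20, adjusted p = 1.99e-06). Both genes were close to 0 in the glands and near the middle of the family's range in the placodes. Cdh10 was 10.1 and 11.6 FPKM in the placodes and 1.36 and 2.04 FPKM in the SMGs, with a log2 fold change of 2.14. Cdh18 was 2.38 and 2.50 FPKM against 0.422 and 0.132 FPKM, a log2 fold change of 1.44. Cdh6, a cadherin of kidney and neural tissue, was 6.80 and 7.77 FPKM against 2.70 and 2.75 FPKM, a log2 fold change of 1.15. None of these groups overlapped, but the share of all features without overlap was not computed. Cdh8, Cdh18 and Cdh22 passed the expression minimum through the placodes alone.

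Genes that lie near each other did not all move together. Like Cdh1 and Cdh3, Pcdh1 (38185914 to 38212053) and Pcdh12 (38267089 to 38284402) on chromosome 18 were both lower. On chromosome 15, Cdh6, Cdh10 and Cdh18 were all higher, although they lie far apart, with starts at 13028701, 18818947 and 22549022. The untested Cdh9 and Cdh12 lie among them, and Celsr1, further along the same chromosome, was lower. Other neighbours moved apart, and whether neighbours tend to share a direction was not tested. Cdh8 and Cdh11 follow each other on chromosome 8 with no other protein-coding gene in the 3215623 bp between them, and they moved in opposite directions. The same holds on chromosome 1 for Cdh7 and Cdh19, 748168 bp apart with none between, although both lay under the minimum of the test. On chromosome 3, Pcdh10 and Pcdh18, with 4307672 bp and 1 protein-coding gene between them, were also called in opposite directions. Cdh7 was 1.64 and 1.48 FPKM in the placodes and 0.101 and 0.222 FPKM in the SMGs. Cdh19, a marker of the Schwann cell lineage, was at 0 in each of the placode samples and at 1.91 and 1.85 FPKM in the SMGs. Sox10, the transcription factor of that lineage, was 2.00 and 1.58 FPKM in the placodes against 19.1 and 16.7 FPKM in the SMGs, and the 5 Schwann precursor markers summed to 7.43 to 8.64 against 36.6 to 39.6 FPKM. Of these 5, 3 were called lower, and Foxd3, which did not pass, was 4.40 and 3.56 FPKM against 2.99 and 3.15 FPKM. Of the remaining untested type II genes, Cdh20 was 1.07 and 0.908 FPKM in the placodes and 0.217 and 0.171 FPKM in the SMGs, and Cdh9 and Cdh12 reached at most 0.106 and 0.263 FPKM.

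The 16 type I and type II members summed to 189 and 198 FPKM in the placodes and to 198 and 201 FPKM in the SMGs, and the make-up of the sum differed. Cdh2 gave 54.0% and 53.6% of this sum in the placodes and 11.6% and 10.5% in the SMGs. Cdh11 gave 17.5% and 17.8% in the placodes and 58.0% and 62.7% in the SMGs. The share of Cdh1 was 0.589% and 0.594% against 14.3% and 12.3%. Cdh2 thus held the first place in the placodes and Cdh11 in the glands. Type I genes as a class made up 61.1% and 61.0% of the sum in the placodes and 38.3% and 33.5% in the SMGs. The type II cadherins Cdh5 (VE-cadherin) and Cdh24 are not among the 41 genes, and both were lower in the placodes, with log2 fold changes of −1.93 and −0.92. When they were added, a choice made after the values had been seen, the sums were 201 and 211 FPKM in the placodes and 238 and 246 FPKM in the SMGs, so the level of the sum depends on them. Cdh2 then gave 50.7% and 50.3% in the placodes and 9.67% and 8.58% in the SMGs, and Cdh11 gave 16.4% and 16.8% against 48.2% and 51.3%. All these shares are of transcripts scaled to length and are given as a description, without a test.

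**Figure D2:**
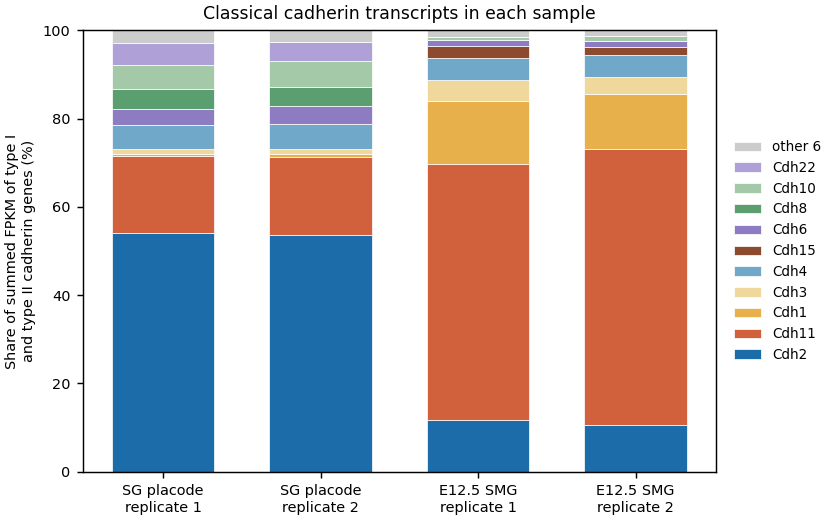
Share of each classical cadherin in the summed FPKM of the 16 type I and type II genes, in percent, 1 bar per sample. Cdh2 fills 54.0% and 53.6% of the placode bars and Cdh11 fills 58.0% and 62.7% of the SMG bars, while Cdh4 takes a similar slice of all 4.

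Of the 5 other cadherins 1 was tested. Cdh13 (T-cadherin), which is held to the membrane by a lipid anchor and lacks a cytoplasmic tail, was 12.1 and 11.5 FPKM in the placodes and 0.952 and 0.834 FPKM in the SMGs. It was higher in the placodes by a log2 fold change of 2.76 (SE 0.10, adjusted p = 1.85e-06), and it passed the minimum through the placodes alone. Cdh23, one component of the tip links of hair cells, was 1.59 and 1.25 FPKM against 0.195 and 0.222 FPKM and lay below the minimum. Pcdh15, its tip link partner, was 0.501 and 0.759 FPKM against 0.185 and 0.190 FPKM. Cdh17, a cadherin of the intestine, reached at most 0.161 FPKM. Cdh16, a cadherin of the kidney, and Cdh26 were listed at 0 in all 4 samples.

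The 3 Celsr genes did not move together. They encode seven-pass transmembrane cadherins that bind each other across cell borders in planar cell polarity, with Celsr1 the usual form in epithelia and Celsr2 and Celsr3 more frequent in developing brain. Celsr2 was 43.3 and 47.6 FPKM in the placodes and 4.71 and 4.75 FPKM in the SMGs, with a log2 fold change of 3.02 (SE 0.07, adjusted p = 4.60e-07). Celsr3 was 12.8 and 14.3 FPKM against 1.30 and 1.12 FPKM, a log2 fold change of 2.72 (adjusted p = 2.51e-06). Celsr1 ran the other way, with 1.24 and 1.49 FPKM in the placodes and 8.42 and 8.05 FPKM in the SMGs (log2 fold change −1.97, adjusted p = 9.62e-06). Celsr2 was 34.8 and 32.0 times as high as Celsr1 in the placodes, and in the SMGs it was 0.560 and 0.590 of the Celsr1 level. Celsr2 stood next to Cdh2 in the order of the 41 genes in the placodes, and both its samples lay above those of the next gene, Cdh11.

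Among the giant cadherins, Fat3 and Fat4 were higher in the placodes and Dchs1 was lower. Fat4 and Dchs1 encode a receptor and ligand pair that bind across neighbouring cells. Fat4 was 25.9 and 29.4 FPKM in the placodes and 6.88 and 7.43 FPKM in the SMGs, with a log2 fold change of 1.81 (adjusted p = 5.61e-06). Dchs1 was 21.3 and 23.6 FPKM against 32.5 and 35.5 FPKM, a smaller log2 fold change of −0.58 (adjusted p = 0.000494). Fat3 rose from 1.27 and 0.927 FPKM in the SMGs to 14.3 and 14.5 FPKM in the placodes (log2 fold change 2.88, adjusted p = 2.73e-06). Fat1, which is widely expressed, was 20.8 and 23.6 FPKM against 14.6 and 12.9 FPKM, a log2 fold change of 0.65 (adjusted p = 0.000787). Fat2, known from squamous epithelium and cerebellar granule cells, was listed at 0.00424 and 0.00415 FPKM in the placodes and at 1.94 and 1.81 FPKM in the SMGs, under the minimum of the test. In Fat4 8.68% and in Dchs1 5.86% of the exonic bases are shared with antisense genes, and the library kit, as labelled, does not mark strand, so their reads cannot be told apart there.

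On the log2(FPKM + 1) scale, the 12 nonclustered protocadherins held the highest fold change of the family and also 2 of the 3 tested genes that did not pass. Pcdh8 (paraxial protocadherin), which acts in somite formation and at synapses, was 27.4 and 29.0 FPKM in the placodes and 0.375 and 0.254 FPKM in the SMGs. Its log2 fold change was 4.47 (SE 0.10, adjusted p = 3.63e-07), and it passed the expression minimum through the placodes alone. As a ratio of mean FPKM, Pcdh8 was 89.6 times as high in the placodes and Cdh8 96.6 times, so their order depends on the scale. Both ratios rest on low SMG means, 0.315 FPKM for Pcdh8 and 0.0898 FPKM for Cdh8. No ratio was taken for genes with a sample at or below 0.05 FPKM, Cdh22 among them. An antisense gene shares 9.61% of the exonic bases of Pcdh8. Pcdh9 was 6.16 and 5.93 FPKM in the placodes and 1.23 and 1.62 FPKM in the SMGs, with a log2 fold change of 1.54. The X-linked Pcdh19, which neurons use together with N-cadherin, was 3.38 and 3.59 FPKM against 1.48 and 1.31 FPKM, a log2 fold change of 0.91. Pcdh10 rose less, from 5.79 and 5.36 FPKM to 7.55 and 7.48 FPKM (log2 fold change 0.37, adjusted p = 0.00678), and it passed neither without placode replicate 1 (adjusted p = 0.0563) nor without placode replicate 2 (adjusted p = 0.0514). Pcdh11x, also on the X chromosome, was 1.14 and 1.55 FPKM against 0.319 and 0.250 FPKM and was not tested.

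Protocadherins lower in the placodes were Pcdh18, Pcdh1, Pcdh12 and Pcdh20. Pcdh18 was 15.1 FPKM in both placode samples and 56.3 and 57.3 FPKM in the SMGs, where it ranked next to Cdh11 (log2 fold change −1.85, SE 0.05, adjusted p = 6.88e-07). Pcdh1, which airway epithelium uses, was 3.44 and 3.59 FPKM against 14.8 and 15.6 FPKM (log2 fold change −1.84, adjusted p = 4.18e-06). Their groups lay far apart relative to the difference between replicates. Pcdh12, an endothelial protocadherin, was 1.34 and 0.709 FPKM in the placodes and 7.26 and 7.67 FPKM in the SMGs (log2 fold change −2.08, adjusted p = 5.41e-05). The 5 endothelial markers were all lower as well and summed to 9.27 to 10.1 FPKM in the placodes and to 104 to 108 FPKM in the SMGs. Most of the placode sum came from Cdh5, the endothelial cadherin, with 8.07 and 7.60 FPKM, while Pecam1, Kdr, Tek and Cldn5 were each below 1 FPKM there. Pcdh20 was 1.08 and 0.979 FPKM against 1.43 and 2.07 FPKM. Its log2 fold change of −0.43 passed narrowly (adjusted p = 0.0355) and did not pass without placode replicate 1 (adjusted p = 0.120), without placode replicate 2 (adjusted p = 0.165) or without SMG replicate 2 (−0.26, adjusted p = 0.0753).

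Pcdh7 and Pcdh17 did not pass the test. Pcdh7 was 7.05 and 7.46 FPKM in the placodes and 5.89 and 6.67 FPKM in the SMGs, with a 95% interval of the log2 fold change from −0.04 to 0.41 (adjusted p = 0.115). An antisense gene shares 21.1% of its exonic bases. Pcdh17 was 1.72 and 2.30 FPKM against 1.99 and 1.61 FPKM, and these groups overlapped (interval −0.25 to 0.45, adjusted p = 0.544).

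**Figure D3:**
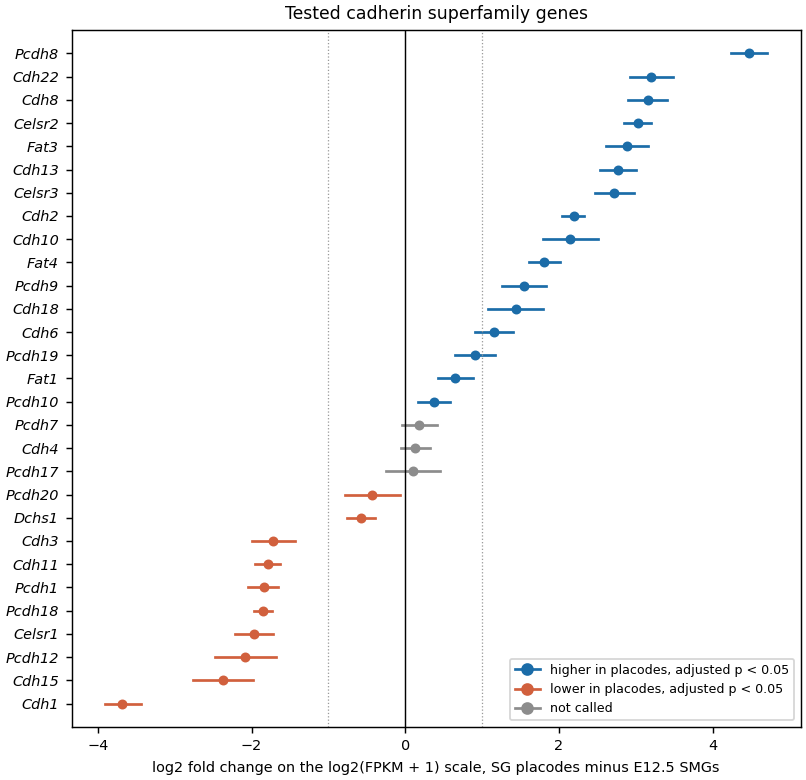
Log2 fold change on the log2(FPKM + 1) scale, placodes minus SMGs, of the 29 tested genes in order of size, with points for the limma estimate, bars for its 95% interval and dotted lines at a 2-fold change. Pcdh8 stands at the top with 4.47 and Cdh1 at the bottom with −3.68, and the bars of Pcdh7, Cdh4 and Pcdh17 cross 0.

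Ordered by level, the placodes ran from Cdh2 through Celsr2 and Cdh11 to Pcdh8 and Fat4, and the last 2 did not separate between samples. Dchs1 and Fat1 followed and did not separate either. In the SMGs the order was Cdh11, Pcdh18, Dchs1, Cdh1, Cdh2, Pcdh1 and Fat1, each with both samples above those of the next. Cdh11, Dchs1, Fat1 and Cdh2 thus stood among the 7 most abundant members in both groups. With no minimum of expression, 39 members could be tested, all but Cdh16 and Cdh26, and 21 were higher and 11 lower, where 27.1% of all features in that test were called higher and 31.1% lower. In that test Cdh7, Cdh20, Cdh23, Pcdh11x and Pcdh15 were added as higher and Cdh19 and Fat2 as lower, and Pcdh20 no longer passed (adjusted p = 0.0689).

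The proteins that connect classical cadherins to actin and to nectins were mixed as well. Of 18 adherens junction genes 17 were tested, and 7 were higher, 9 lower and 1 did not pass, so that 94.1% were called beside the 76.2% of all tested features. At least 2-fold changes were called for 3 in each direction, together 35.3% of the list, beside 29.4% of all tested features. Beta-catenin (Ctnnb1), which binds the tail of classical cadherins and also carries Wnt signals, was the gene that did not pass. It was 357 and 372 FPKM in the placodes and 374 and 370 FPKM in the SMGs, with overlapping groups and a 95% interval of the log2 fold change from −0.16 to 0.10. Above it stood Ctnna2, the neural alpha-catenin, with 30.2 and 33.2 FPKM against 1.70 and 1.39 FPKM (log2 fold change 3.68, adjusted p = 6.62e-07). Arvcf, a relative of p120-catenin, was 62.5 and 60.3 FPKM against 16.0 and 13.9 FPKM (log2 fold change 1.97). Ctnnd2, the neural delta-catenin, was 10.7 and 9.94 FPKM against 2.57 and 1.70 FPKM (log2 fold change 1.87). The widely expressed Ctnna1 and Ctnnd1 were both lower, with log2 fold changes of −0.75 and −0.31.

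At the other end of this list stood Lima1, Nectin4 and Jup. Lima1, an actin-binding protein that joins the cadherin and catenin complex, was 12.9 and 11.8 FPKM in the placodes and 61.5 and 60.6 FPKM in the SMGs (log2 fold change −2.22, adjusted p = 7.17e-07). Jup (plakoglobin), which serves both adherens junctions and desmosomes, was 11.8 and 12.6 FPKM against 37.2 and 36.8 FPKM (log2 fold change −1.52). Nectin4 was 0.489 and 0.708 FPKM against 3.52 and 4.42 FPKM (log2 fold change −1.63), and it passed the expression minimum through the SMGs alone. None of these 3 groups overlapped, but the share of all features without overlap was not computed. Ctnna3 reached at most 0.0511 FPKM and was not tested.

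All 17 planar polarity genes were tested, and 9 were higher, 3 lower and 5 not called. That is a share of 70.6% called, below the 76.2% of all tested features. At least 2-fold changes were called for 4 as higher and 2 as lower, together 35.3% of the list, beside 29.4% of all tested features. Fuz, one of the 9, passed narrowly (adjusted p = 0.0498) and did not pass without placode replicate 1 (0.214), placode replicate 2 (0.178) or SMG replicate 1 (0.203). Fzd3, a frizzled receptor of axon tracts, was 35.5 and 36.7 FPKM in the placodes and 5.77 and 5.87 FPKM in the SMGs (log2 fold change 2.44, adjusted p = 5.53e-07). Fzd6, a frizzled receptor known from skin and hair, showed the opposite order, with 1.34 and 1.30 FPKM against 10.6 and 10.8 FPKM (log2 fold change −2.33, adjusted p = 2.77e-06). Vangl2, a core membrane protein of the pathway, was 64.9 and 66.1 FPKM against 12.8 and 12.4 FPKM (log2 fold change 2.29). The receptor pair and the Celsr genes each held members called in both directions. Prickle2 followed with a log2 fold change of 1.41, and Ptk7 and Dvl2 were lower with −1.27 and −0.91. Not called were Vangl1, Prickle1, Scrib, Wdpcp and Dchs2. Dchs2 was 2.70 and 2.97 FPKM in the placodes and 2.75 and 7.21 FPKM in the SMGs, and its log2 fold change was −1.10 without SMG replicate 1 (adjusted p = 0.00418) and 0.03 without SMG replicate 2.

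**Figure D4:**
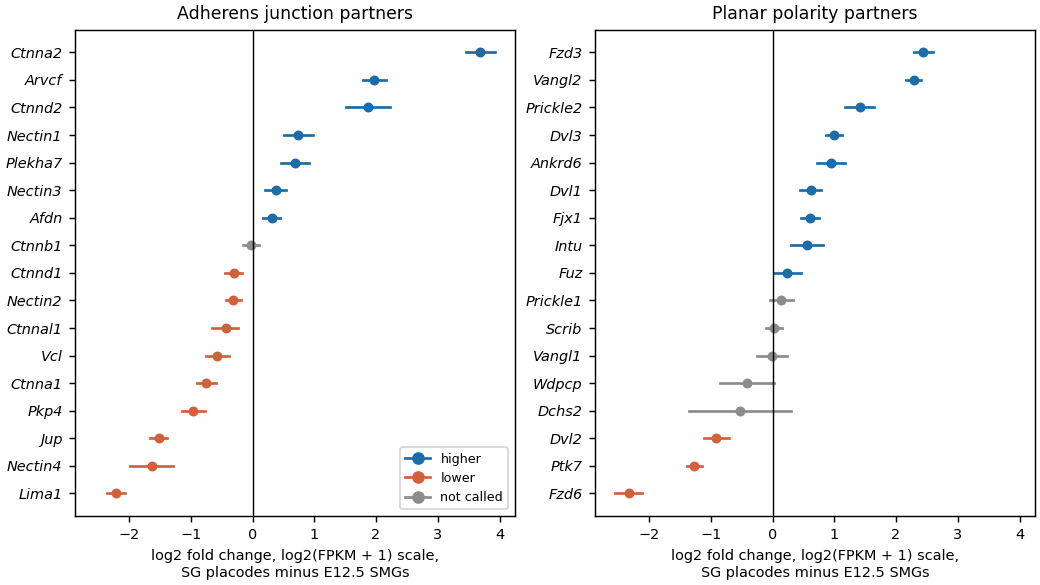
Log2 fold change on the log2(FPKM + 1) scale, placodes minus SMGs, of the tested adherens junction genes (left) and planar polarity genes (right), with points for the limma estimate and bars for its 95% interval. Ctnna2 at 3.68 and Lima1 at −2.22 bound the left list, Fzd3 at 2.44 and Fzd6 at −2.33 bound the right list, and Dchs2 has the widest bar.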

How the data were processed

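RNA-seq values of 2 placode samples and 2 SMG samples were used, grouped by the sample labels. The authors aligned paired-end reads by HISAT2, and the deposited unit is FPKM per gene. The submitters' processing notes name GRCm38 and GRCh38; the annotation, the FPKM program and the strand setting are not given in the sources used here. Read counts and depth are not given in the sources used here, and no counting intervals are given.

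FPKM was transformed as log2(FPKM + 1). The 13193 features with a mean of at least 1 FPKM over the 4 samples entered limma (version 3.58.1, under R 4.3.3) through lmFit and eBayes with trend, with group as the sole term, two-sided, with Benjamini-Hochberg adjustment over all of them. A gene was called at an adjusted p below 0.05. A change counted as 2-fold or more where its log2 size was 1 or more. An exact permutation test of 2 against 2 samples cannot go below p = 0.333 and was not used. Replicates correlated at r = 0.994 and 0.992 across features, and samples of different groups at 0.712 to 0.716. Positions and shared exons came from GENCODE M21 (GRCm38), where all 41 members were found, and promoters from RefSeq (GRCm38.p6). The script was tested on simulated data. The members and gene lists were chosen with earlier results of these data known. All members are accounted for. Of each partner list, the 3 highest and 3 lowest tested genes are named by rule, and Ctnnb1, Ctnna1, Ctnnd1 and the planar polarity genes not called were named after their values were seen. Alternatives covered the pseudocount, scaling, expression minimum, eBayes options, the replicate number as a block and each sample left out.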

Additional observations from a re-analysis of the deposited data

How the results depend on the processing

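Of 367 values of the 29 tested members under the alternatives, 358 kept their direction and side of the threshold, and the 9 others belonged to Pcdh10, Pcdh17 and Pcdh20. With a minimum of 5 FPKM, which tests fewer members, 6 members were lower and 5 at least 2-fold lower. Without a minimum, 21 were higher. Leaving out 1 sample gave 15 to 16 members higher. The ratio of Cdh1 to Cdh2 FPKM in the SG placodes was 0.0110 and became 0.0117 under quantile normalization. Among genes that did not pass, Pcdh17 ran from −0.04 to 0.24 when 1 sample was left out, changing sign without placode replicate 2, Ctnnb1 under rescaling to an equal sum and under median-ratio scaling (0.03 in both), and Scrib without placode replicate 1 (−0.02). Vangl1, at −0.01, became 0.04 under each of those scalings, 0.03 under quantile normalization, 0.00 without placode replicate 1 and 0.05 without SMG replicate 2, and ranged from −0.06 to 0.05 over the samples left out. Dchs2 ranged from −1.10 without SMG replicate 1 to 0.03 without SMG replicate 2. Pcdh20 also did not pass after rescaling to an equal sum (adjusted p = 0.0507) or quantile normalization (0.0616). The cause of these changes was not tested. With the replicate number as a block, 16 members were higher and 10 lower, 13 and 8 of them at least 2-fold. The same numbers did not pair the samples (r = −0.0348 between deviations, over 2 pairs), and the block lost Fuz (adjusted p = 0.0522) and gained Wdpcp (0.0410) among the partners. Fuz was also lost with a pseudocount of 0.1 (0.0542), without a minimum (0.0796), with eBayes without trend (0.0583) and without 3 of the 4 samples in turn, and Wdpcp also passed without placode replicate 2 (−0.66, adjusted p = 0.0139). Over all tested features, 4716 were higher and 5333 lower, and the larger count turned under rescaling to an equal sum (5060 and 4982) and median-ratio scaling (5079 and 5019). No scaling moved the median of all features by more than 0.055.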
